A study of Mus musculus with 2 samples.

Results

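The miRNAs of the imprinted Igf2-H19 locus were compared between 2 dissected regions of the mouse embryo, the inter mammary gland region and the 3rd mammary gland. They were chosen by their locus names: every spot for mmu-miR-483, whose hairpin lies in Igf2, and for mmu-miR-675-3p and mmu-miR-675-5p, the pair of strands from the hairpin in H19. The signals of these same 2 arrays were known when the locus was selected, so the differences between the regions are descriptions and no test supports them. The set holds 3 of the 696 mouse miRNAs on the array. Both samples came from untreated ICR embryos at E13.5, the stage at which the mammary epithelial bud grows into the mesenchyme beneath it. The inter mammary gland region is the flank tissue lying between the 3rd and the 4th gland, which serves as the control and is called the flank below. From each region total RNA (100 ng) carried a Cy3 label and was hybridized to 1 Agilent miRNA array, and the sources used here do not say how many embryos were pooled. With 1 array per region there is no biological replicate. Every SD given for a signal is a spread over spots of 1 array. The SD of a log2 ratio combines the spreads over spots within each probe on both arrays. It leaves out differences between the probes of a miRNA. Both kinds of SD are technical and cannot show how far embryos differ.

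Igf2 encodes a fetal growth factor and is expressed from the paternal chromosome, while the neighbouring H19, a long noncoding RNA, is expressed from the maternal one. Both genes are known for strong expression in mesodermal and endodermal tissues of the embryo and for sharing enhancers under the control of one imprinting region. Mir483 is carried in an intron of Igf2, and Mir675 is cut from the H19 transcript itself. A miRNA hairpin gives a 5p and a 3p strand, and bases 2 to 8 of a mature strand, the seed, do most of the pairing with target mRNAs.

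The mature strands of both hairpins are shown because the strands of the Igf2 hairpin differed in their signals between the regions. The sequences are those of RefSeq, build GRCm38.p6, with the seed in capitals.
mmu-miR-483-3p: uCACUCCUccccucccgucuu
mmu-miR-483-5p: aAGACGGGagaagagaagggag
mmu-miR-675-3p: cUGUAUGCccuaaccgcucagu
mmu-miR-675-5p: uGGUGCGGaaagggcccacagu
All 4 lie on the minus strand of chromosome 7. The strands of Mir483 occupy chr7:142654932-142654952 (3p) and chr7:142654968-142654989 (5p), within the span of Igf2. Those of Mir675 occupy chr7:142577078-142577099 (3p) and chr7:142577112-142577133 (5p), within H19, 77.8 kb from Mir483. The strands of Mir483 have almost opposite compositions: the 3p strand has 12 C and 1 G in 21 bases, and the 5p strand has 11 G, 10 A and 1 C in 22 bases with no U. None of the 4 seeds was shared with another mouse miRNA of the RefSeq table (0 other mature strands for each). The array names the Igf2 strands mmu-miR-483 and mmu-miR-483*, without 5p or 3p. The array files used here hold no probe sequence, so which of the printed sequences belongs to the unstarred and which to the starred name was not settled.

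Each array held 13920 spots of 1937 miRNA probes, and 38.1% of them were well above background on each array by the scanner software's flag. The values below are background-subtracted spot intensities on a linear scale, as deposited. A probe was taken as detected where more than 50% of its spots carried that flag, and a miRNA needed at least 1 detected probe. On this rule 284 miRNAs were detected on both arrays, 12 on that of the gland alone, 16 on that of the flank alone and 384 on neither. For ratios, signals were scaled by dividing by an upper quantile of each array, the 75th percentile over probes detected on both, which was 786 for the gland and 719 for the flank. The amounts of different miRNAs cannot be read from their signals, since each probe binds with its own strength.

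Of the 3 miRNAs, mmu-miR-483 was lower in the gland by 5.13-fold, mmu-miR-675-3p lay within 1.5-fold, and mmu-miR-675-5p was detected in neither region. Thus 1 of the 3 was at least 1.5-fold lower and 0 were at least 1.5-fold higher. Of the 312 miRNAs detected on at least 1 array, 31 (9.94%) were lower in the gland by this threshold and 10 (3.21%) were higher. With the 75th percentile of all probes as divisor the split was 27 lower and 23 higher, and that setting moved the median log2 ratio of all miRNAs detected on both arrays from 0.05 to 0.21.

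mmu-miR-483 was read by 4 probes of 5 spots each, and all 20 spots were well above background on both arrays. On the array of the gland its spots ran from 33.7 through a median of 66.9 to 95.1. On the array of the flank they ran from 170.4 through a median of 346 to 387. The brightest spot in the gland was thus dimmer than the dimmest in the flank, whichever probe is taken. The mean of the 4 probes was 65.7 in the gland and 308 in the flank, a scaled ratio of 0.195 and a log2 ratio of -2.36 (SD 0.11 over spots). In RNA from whole tissue, fewer cells of a type and less of a miRNA per cell cannot be told apart.

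The 4 probes gave the same direction separately, as the plot of spot signals shows. Probe 1 had a mean signal of 37.4 ± 2.85 (SD, n = 5 spots) in the gland and 174 ± 4.23 (SD, n = 5 spots) in the flank, 5.10-fold lower after scaling. Probe 2 had 60.6 ± 2.67 and 349 ± 8.64, which was 6.31-fold lower. Probes 3 and 4 had 76.5 ± 4.63 against 336 ± 14.3 and 88.2 ± 6.54 against 372 ± 12.3, or 4.81-fold and 4.61-fold lower. The difference between the arrays therefore exceeded the spread between spots in each probe. The spots of mmu-miR-483 were scattered from row 4 to row 191 of the 192 rows of the array, and at 20 of 20 positions the signal was lower in the gland, before and after scaling. Before scaling, the total signal that the authors' software computed for this miRNA was 87.0 (software error 5.93) in the gland and 399 (software error 20.9) in the flank, 4.59-fold lower.

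**Figure D1:**
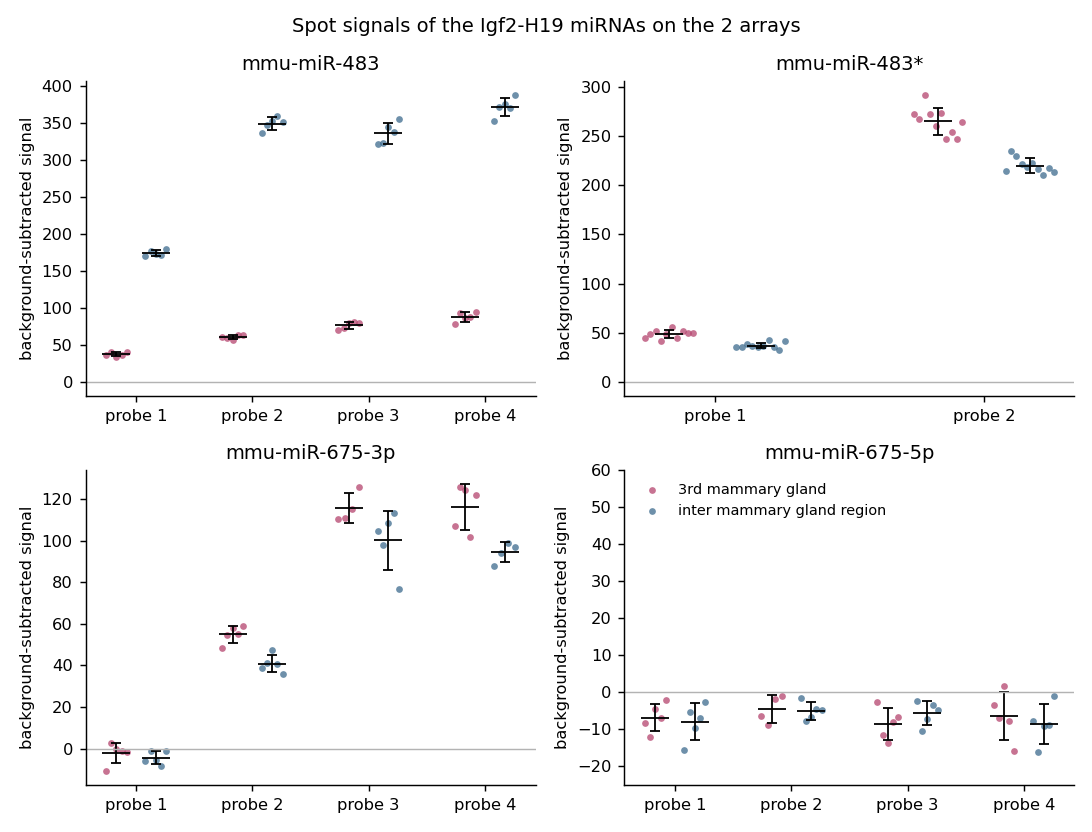
Background-subtracted signal (linear intensity, not scaled between arrays) of every spot used for the 3 miRNAs and for mmu-miR-483*, by probe and by region. Horizontal lines are means and bars are SDs over the spots of a probe, and only for mmu-miR-483 do all probes have separate spot ranges, 33.7 to 95.1 in the gland against 170.4 to 387 in the flank.

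Among the 284 miRNAs detected in both regions, the ratio of mmu-miR-483 was the 6th lowest, with 5 below it. Those ratios ran from 0.461 at the 5th percentile to 1.39 at the 95th, and their median was 1.03. With a normexp correction of median pixel signals and an offset of 50, mmu-miR-483 was 2.92-fold lower, the smallest difference among the 16 alternatives run.

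**Figure D2:**
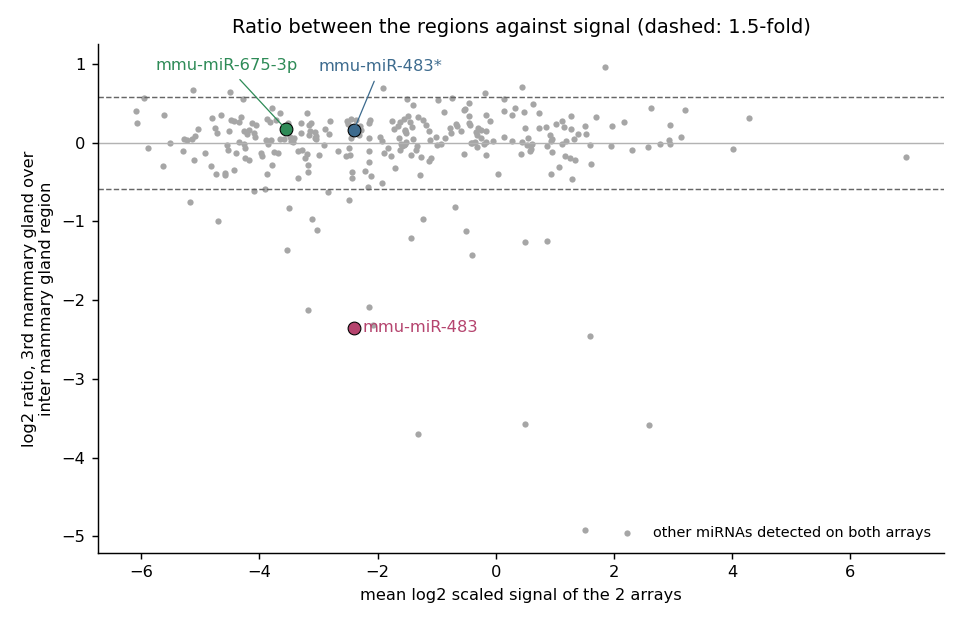
Log2 ratio of the 3rd mammary gland over the inter mammary gland region against the mean log2 scaled signal of the arrays, for the 284 miRNAs detected on both. Dashed lines mark 1.5-fold. mmu-miR-483 lies at -2.36, below most miRNAs of like signal, while mmu-miR-483* and mmu-miR-675-3p lie near the median of all miRNAs.

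The other strand of the same hairpin, mmu-miR-483*, did not share this difference. It was read by 2 probes of 10 spots each, and all 20 spots were well above background on both arrays. Probe 1 had 48.8 ± 4.26 (SD, n = 10 spots) in the gland and 36.9 ± 2.89 in the flank, with overlapping spots. Probe 2 had 265 ± 13.6 and 220 ± 7.54, with spots that did not overlap before scaling but did after it. Both probes were slightly brighter in the gland, and after scaling 19 of the 20 positions were. The scaled ratio was 1.12 and the log2 ratio 0.16 (SD 0.11 over spots), which put the strand 186th from the lowest of the 284.

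The log2 ratios of the strands of Mir483 thus differed by -2.52, or 5.72-fold. The same difference was taken for the other 45 hairpins of which both strands were detected on both arrays. Their median size was 0.16 on the log2 scale, a 1.12-fold difference between strands, and the 95th percentile was 0.71. The largest was 1.06, for miR-139-5p and miR-139-3p, and 0 of the 45 were as large as that of Mir483. mmu-miR-188-5p (log2 ratio -2.08) and mmu-miR-1897-5p (-2.31) could not enter, since their other strands were not detected on both arrays. The pair of Mir483 was singled out after its values were seen. Its difference was -1.66 after normexp, and dividing an array by a constant cannot change it, since both strands are read on the same pair of arrays.

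**Figure D3:**
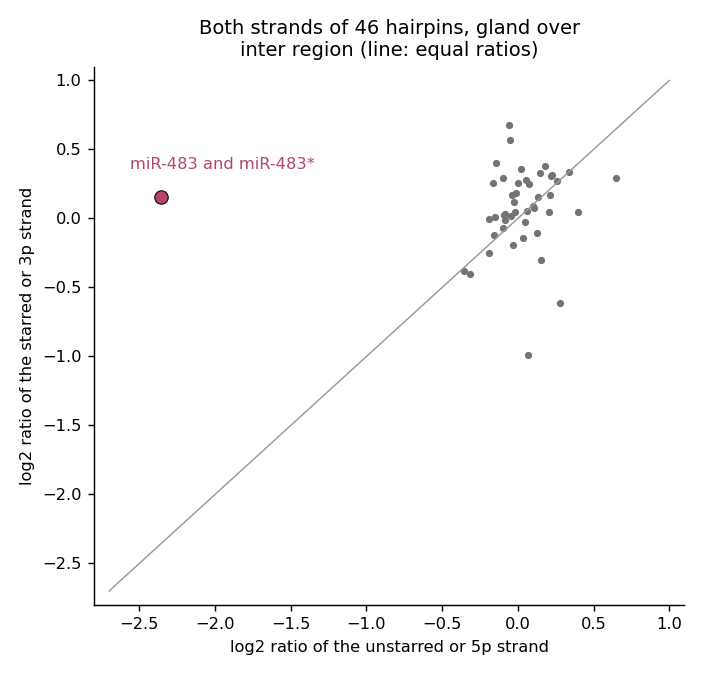
Log2 ratios of both strands of the 46 hairpins with both strands detected on both arrays, with the unstarred or 5p strand on the horizontal axis and the starred or 3p strand on the vertical axis. The line marks equal ratios. The pair of Mir483 lies farthest from it, with log2 ratios of -2.36 and 0.16.

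mmu-miR-675-3p, the strand of the H19 hairpin that was detected, was read by 4 probes, of which 3 were detected on both arrays. Its probe 1 had a mean of -2.12 ± 5.02 (SD, n = 5 spots) in the gland and -4.41 ± 3.20 in the flank, and 0 of these spots were well above background. Probe 2 had 55.03 ± 4.03 and 40.9 ± 4.26 (n = 5 spots each), and its spots did not overlap before scaling. Probe 3 had 116 ± 7.17 (n = 4) against 100.1 ± 14.3 (n = 5), with overlapping spots. Probe 4 had 116 ± 11.0 (n = 5) against 94.5 ± 4.79 (n = 4), without overlap before scaling. After scaling the spots of probes 2 and 4 overlapped too. All 3 detected probes were thus somewhat brighter in the gland, with scaled ratios of 1.23, 1.05 and 1.12. The scaled ratio of the miRNA was 1.13 and its log2 ratio 0.17 (SD 0.25 over spots), the 191st from the lowest of the 284. That difference is smaller than the spread over spots. At 5 of 18 positions used on both arrays the scaled signal was lower in the gland. These 18 include the 5 spots of probe 1, which was not detected on either array. The unscaled software totals were 94.99 (software error 6.62) and 76.3 (software error 5.63).

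mmu-miR-675-5p, the other strand of the H19 hairpin, was not well above background in either region. Of its spots, 0 of 19 in the gland and 0 of 20 in the flank passed the flag. The spot signals ran from -15.8 to 1.58 in the gland and from -16.0 to -0.90 in the flank, and the mean of its probes was -6.58 and -6.81. Negative control spots on these arrays averaged 3.81 ± 5.28 (SD, n = 432 spots) and 2.23 ± 5.07 (SD, n = 428 spots), with maxima of 17.3 and 19.2. The lowest mean of any detected probe was 30.7 in the gland and 27.1 in the flank. No spot of mmu-miR-675-5p reached these levels, so no fold was computed. The deposited table lists it at 0.1 in both regions, a stand-in for a miRNA not called detected. The strands of Mir675 could therefore not be compared in the way of those of Mir483.

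The miRNAs nearest to mmu-miR-483 in both log2 ratio and mean log2 scaled signal were mmu-miR-1897-5p, mmu-miR-188-5p and mmu-miR-721. mmu-miR-1897-5p had 83.6 in the gland and 379.6 in the flank, 4.97-fold lower, at a distance of 0.33 on the log2 scale. mmu-miR-188-5p had 86.7 and 336, 4.24-fold lower, at 0.38. mmu-miR-721 had 41.4 and 165, 4.35-fold lower, at 0.82. The sequences of the latter pair, which RefSeq places at chrX:7248031-7248051 and chr5:136375777-136375797 (minus strand, GRCm38.p6), show that neither has the seed of a Mir483 strand.
mmu-miR-188-5p: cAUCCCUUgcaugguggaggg
mmu-miR-721: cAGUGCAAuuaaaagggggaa
For mmu-miR-675-3p the nearest were mmu-miR-1983, mmu-miR-872 and mmu-miR-484, at distances of 0.094, 0.12 and 0.13, with scaled ratios of 1.19, 1.05 and 1.03. All 3 lay within 1.5-fold, like most miRNAs detected on both arrays. Likeness here is over 2 arrays only.

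Other imprinted loci also hold miRNAs, and the median log2 ratios of the lists taken for comparison were 0.34 (Mest), 0.08 (Gnas and Nespas) and 0.02 (Dlk1-Dio3), beside 0.05 for all miRNAs detected on both arrays. Mest, a paternally expressed gene, holds the hairpin of miR-335. mmu-miR-335-5p had 2143 in the gland and 1550.1 in the flank, and mmu-miR-335-3p had 356 and 258. Both had a scaled ratio of 1.26, so these strands had like ratios and 0 of the 2 passed 1.5-fold. In the list of Gnas and Nespas, another imprinted locus, mmu-miR-296-5p had 268 and 211, a ratio of 1.16. mmu-miR-298 had 40.5 and 38.6, a ratio of 0.958, with 5 of 20 spots flagged as above background on each. mmu-miR-296-3p was detected on neither, so 0 of the 3 passed 1.5-fold.

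The Dlk1-Dio3 region is the large imprinted miRNA cluster expressed from the maternal chromosome. It was represented by a list chosen by miRNA number, which matched 73 names on the array and was not checked for completeness. Of these, 50 were detected on both arrays, 1 on that of the gland alone and 22 on neither. Among them 2 were lower in the gland by at least 1.5-fold and 0 were higher (1 was when detection was taken from the scanner software). Over all 312 miRNAs detected on at least 1 array, 31 (9.94%) were lower and 10 (3.21%) were higher. The lowest of the list was mmu-miR-134 at 65.8 and 129, 2.15-fold lower. Of its spots, 15 of 20 were well above background in the gland and 19 of 19 in the flank. The other lower name of the list was mmu-miR-494 at 366 and 589, 1.76-fold lower, named after its value was seen. The highest was mmu-miR-369-3p at 98.4 and 69.2, a ratio of 1.30. The 2.15-fold difference of mmu-miR-134 was the largest decrease in these 3 comparison lists, against 5.13-fold for mmu-miR-483.

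**Figure D4:**
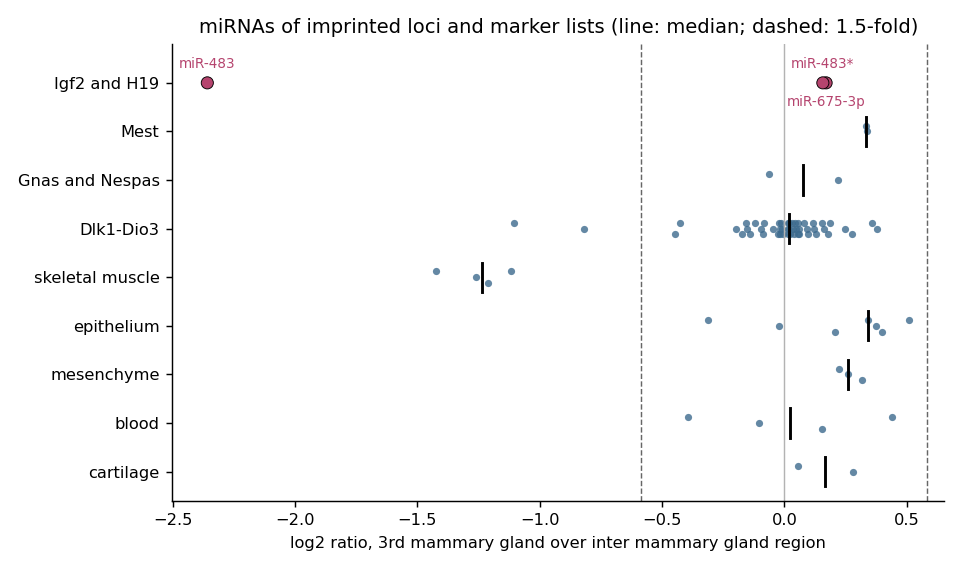
Log2 ratio of the 3rd mammary gland over the inter mammary gland region for miRNAs detected on both arrays, by imprinted locus and by cell type list. Short black lines mark list medians and dashed lines 1.5-fold. mmu-miR-483 at -2.36 lies below every listed miRNA, and among the lists only skeletal muscle has its median (-1.24) past 1.5-fold.

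Markers of cell types that each dissection could hold were set beside these values. The skeletal muscle miRNAs moved in the same direction as mmu-miR-483: 5 of 5 were at least 1.5-fold lower in the gland (4 of 5 after normexp). Over all miRNAs detected on at least 1 array, 31 of 312 (9.94%) were. The summed signal of the 5 muscle names, not scaled between the arrays, was 1661 in the gland and 3657 in the flank. mmu-miR-206, a miRNA of developing muscle, was 2.69-fold lower, mmu-miR-133b 2.40-fold, mmu-miR-133a 2.31-fold and mmu-miR-1 2.17-fold. mmu-miR-133a*, detected only in the flank, was at least 1.70-fold lower, with its signal of 47.5 set against the lowest detected probe of the gland. The part of muscle in the difference of mmu-miR-483 was not tested.

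In the remaining lists 0 miRNAs were at least 1.5-fold lower in the gland. All 7 epithelial miRNAs (the miR-200 family, miR-203 and miR-205) were detected in both regions, and 0 passed 1.5-fold, although 1 (mmu-miR-200a, ratio 1.43) was past it in the higher direction under 5 alternatives: no scaling between the arrays, the percentile over all probes, the median probe, and the scaled software totals and deposited table. The median log2 ratio of the 7 was 0.34, with 5 above 0 and 2 below: mmu-miR-203 (ratio 0.805) and mmu-miR-205 (ratio 0.985). Their summed signal, not scaled between the arrays, was 10955 and 9530, of which mmu-miR-205 gave 5334 and 4947. Epithelial markers were thus present in the flank as well as in the gland. The 3 mesenchymal names (both strands of miR-199a, and miR-214) had a median of 0.26 and summed signals, not scaled between the arrays, of 27626 and 20691. The 4 blood names had a median of 0.02, with 2 above 0 and 2 below, from mmu-miR-486 (ratio 0.761) to mmu-miR-451 (ratio 1.36). The 2 cartilage names, both strands of miR-140, had a median of 0.17. In either list 0 passed 1.5-fold in the main setting. After quantile normalization, or with all probes in the scaling percentile, 1 blood name was higher by that much. mmu-miR-122, the defining miRNA of liver, where Igf2 and H19 are strongly expressed in the fetus, was detected in neither region, with signals of 10.8 and 17.6. The 3 neural names (miR-124 and both strands of miR-9) were also detected in neither.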

How the data were processed

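miRNA profiles of 2 regions of ICR embryos at E13.5 were analysed, with 1 array per region and 1 slide and 1 scan for both. Spot intensity was extracted by the authors with Feature Extraction (10.7.3.1 per the file headers), which subtracts background. These deposited intensities are linear, may fall below 0 and carry no scaling between arrays. A deposited table gives total intensity per miRNA, with 0.1 where none was called. GeneSpring GX was named for normalization, but the scaling is not given in the sources used here.

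Control and outlier spots were left out, spots of a probe and then probes of a miRNA were averaged, and ratios were taken after scaling to the 75th percentile over probes detected on both. A miRNA detected on 1 array was set against a floor, the lowest detected probe of the other array. The call threshold was 1.5-fold. With 1 array per region no test was possible, and precision is limited by that number of arrays. The members and lists were chosen with earlier results of these data known. Named miRNAs were the members, the other strand of miR-483, the Mest and Gnas names, the highest and lowest of Dlk1-Dio3, any miRNA sharing a member's seed, and the 3 nearest to each member detected on both arrays. Sequences and names came from RefSeq tables of GRCm38.p6, in which 2 of the 4 mature names of the locus equal an array name. Coordinates were taken from these tables alone, since the array design names another build. Alternatives covered scaling, signal column, detection, outlier spots, choice of probe, floor and threshold. The planned normexp correction was run on median pixel signals (offset 50). The steps were tested on simulated spots. Python 3.11.15, numpy 2.4.6, pandas 2.3.3, scipy 1.17.1, matplotlib 3.10.9, R 4.3.3 and limma 3.58.1 were used.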

Additional observations from a re-analysis of the deposited data

How the results depend on the processing

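mmu-miR-483 was lower in the gland under all 16 alternatives, with ratios from 0.158 to 0.342. Of these, 8 moved the log2 ratio by less than its SD over spots of 0.11, which leaves out differences between probes. The other 8 gave 0.213 with no scaling, 0.218 with the percentile taken over all probes, 0.212 with the median probe, 0.211 after quantile normalization, 0.342 after normexp, 0.217 with the brightest probe, and 0.158 and 0.217 with probe 2 or probe 4 alone. mmu-miR-675-3p kept its direction and stayed under 1.5-fold in all 15, from 1.05 to 1.33, and mmu-miR-675-5p was detected on neither array in all 12. mmu-miR-483* gave 1.22 with no scaling, 1.25 with all probes in the percentile, and 1.21 both with the median probe and with its dimmer probe alone. The strand difference of Mir483, added with mmu-miR-483* after the data were seen, became -1.66 after normexp and -2.34 with the brightest probe. The median of Mest (0.34, log2) became 0.47 with no scaling, 0.49 with all probes in the percentile, and 0.45 both with the median probe and after quantile normalization. The count of 10 higher miRNAs became 19 with no scaling or the median probe, 23 with all probes in the percentile, the scaled software totals or the scaled deposited table, 18 after quantile normalization, 3 after normexp, 6 with every spot required or dim miRNAs left out, and 2 at 2-fold. The count of 31 lower became 19 after normexp and 19 at 2-fold, and lay between 27 and 38 otherwise. The median log2 ratio of all miRNAs was 0.18 with no scaling and 0.17 with the median probe or after quantile normalization, against 0.05, so small ratios are read relative to that shift. The cause of these moves was not tested. No paired analysis was possible because the regions were measured on 1 array each, without numbers to pair. With no replicate array, no value here separates the regions from the 2 RNA samples that stand for them.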

Other observations

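Base composition was looked at after the values were seen, among the 60 miRNAs that were detected on both arrays and carry the same name in RefSeq. The 8 of them that were at least 1.5-fold lower in the gland had 33.3% to 68.4% G in their mature sequence, with a median of 43.2%, and the other 52 had a median of 22.7% (0% to 45.5%). The strands of Mir483 are not among the 60, since their RefSeq names differ from those of the array. The 5p strand has 50% G, within the range of the 8, and the 3p strand has 4.76% G, below it. Which of them mmu-miR-483 reads was not settled, so mmu-miR-483 cannot be placed in this comparison, which is a description of named miRNAs on 1 pair of arrays.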
